A study of Homo sapiens with 16 samples.

Results

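The libraries described here are the 4 that map SMAD3 and H3K27ac in TGF-beta-treated H69 cells, a virus-immortalised line derived from human bile duct epithelium (cholangiocytes). TGF-beta was given at 10 ng/ml, and cells were taken after 16 h. They were chosen by their labels, as SMAD3 replicates 4 and 5 and H3K27ac replicates 1 and 2 of treated cells, and they are 4 of the 12 libraries of the series that have a peak list. The whole series holds 16 labelled samples, of which 4 are inputs that were not used here. It was made by chromatin immunoprecipitation with sequencing (ChIP-seq) for 3 targets, SMAD3, H3K27ac and H3K9ac, in cells given TGF-beta or vehicle for 16 h. The H3K9ac libraries of treated cells and the libraries of vehicle cells enter only as further readouts of the same sites. Every library comes from a single cell line, and the labels do not say whether libraries of one group were separate cultures.

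TGF-beta binds a pair of receptor kinases that phosphorylate SMAD2 and SMAD3, and these join SMAD4, enter the nucleus and bind DNA, usually beside other transcription factors. SMAD complexes recruit the acetyltransferases p300 and CBP, which place H3K27ac on histones at active promoters and enhancers. H3K9ac, placed mainly by other acetyltransferases, marks active promoters most strongly. In bile ducts TGF-beta is known for driving cholangiocytes to secrete matrix and profibrogenic factors.

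Of the sequences of these sites, those of microRNAs that lie in SMAD3 regions or in SMAD3-carrying elements and of 5 gene starts are shown, because the results below return to them. MicroRNA sequences are RefSeq mature sequences placed on GRCh38.p14, written 5′ to 3′, with the seed (bases 2 to 8), the stretch that pairs with target RNAs, in capitals. The hairpins of miR-21, let-7a, let-7b and let-7i and of the miR-23a, miR-27a and miR-24 cluster lay in H3K27ac regions that carried SMAD3. Those of miR-25 and miR-106b lay in a SMAD3 region, and neither hairpin overlapped an H3K27ac peak of either library. The microRNAs were picked after their values were seen. The 3 let-7 members shown share 1 seed, GAGGUAG, and each of the other microRNAs has a seed of its own.
hsa-miR-21-5p, chr17:59841273-59841294, plus strand: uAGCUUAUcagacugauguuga
hsa-let-7a-5p, chr22:46112752-46112773, plus strand: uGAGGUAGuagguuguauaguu
hsa-let-7b-5p, chr22:46113691-46113712, plus strand: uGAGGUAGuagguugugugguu
hsa-let-7i-5p, chr12:62603691-62603712, plus strand: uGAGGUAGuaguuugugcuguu
hsa-miR-23a-3p, chr19:13836595-13836615, minus strand: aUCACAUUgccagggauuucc
hsa-miR-27a-3p, chr19:13836447-13836467, minus strand: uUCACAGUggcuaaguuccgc
hsa-miR-24-3p, chr19:13836289-13836310, minus strand: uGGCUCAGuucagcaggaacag
hsa-miR-25-3p, chr7:100093571-100093592, minus strand: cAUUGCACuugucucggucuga
hsa-miR-106b-5p, chr7:100094043-100094063, minus strand: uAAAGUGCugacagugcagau

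The gene starts are RefSeq windows on GRCh38.p14, from 250 bases before to 50 bases after the start, on the strand of the gene. Capitals mark matches on either strand to the SMAD palindrome GTCTAGAC, to the short SMAD word CAGAC, to GGCGCC, a GC-rich word that SMAD proteins can bind, or to TGANTCA, the motif of AP-1. TGFBI, SKIL and THBS1 stand for starts with SMAD3 and H3K27ac, KCNA7 for starts with SMAD3 alone and CDA for starts with H3K27ac alone. The peaks of SMAD3 replicates 4 and 5 covered 300 and 300 bases of the TGFBI, SKIL and THBS1 windows, 300 and 254 of the KCNA7 window and 0 of the CDA window. The peaks of H3K27ac replicates 1 and 2 covered 300 and 300 bases of the TGFBI and SKIL windows, 178 and 300 of the THBS1 window, 0 of the KCNA7 window and 300 and 122 of the CDA window. A match says only that these letters stand in the window. The TGFBI window holds 1 match to the GC-rich word, the SKIL window 1 match to it and 1 to the short SMAD word, the THBS1 window 1 and the CDA window 2 matches to the short SMAD word, and the KCNA7 window no match to any of the 4.
TGFBI, chr5:136028738-136029037, plus strand: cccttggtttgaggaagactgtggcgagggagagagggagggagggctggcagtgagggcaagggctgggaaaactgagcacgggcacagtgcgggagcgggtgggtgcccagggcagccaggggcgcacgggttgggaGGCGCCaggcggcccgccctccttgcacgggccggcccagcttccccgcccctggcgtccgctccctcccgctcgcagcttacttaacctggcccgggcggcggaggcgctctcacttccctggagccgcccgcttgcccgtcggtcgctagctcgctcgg
SKIL, chr3:170357465-170357764, plus strand: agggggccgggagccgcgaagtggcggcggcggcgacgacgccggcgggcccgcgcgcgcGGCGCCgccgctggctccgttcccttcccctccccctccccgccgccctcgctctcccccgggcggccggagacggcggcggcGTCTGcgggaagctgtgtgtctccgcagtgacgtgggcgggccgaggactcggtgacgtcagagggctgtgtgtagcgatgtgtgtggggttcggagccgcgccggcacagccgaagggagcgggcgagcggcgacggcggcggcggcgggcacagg
THBS1, chr15:39580829-39581128, plus strand: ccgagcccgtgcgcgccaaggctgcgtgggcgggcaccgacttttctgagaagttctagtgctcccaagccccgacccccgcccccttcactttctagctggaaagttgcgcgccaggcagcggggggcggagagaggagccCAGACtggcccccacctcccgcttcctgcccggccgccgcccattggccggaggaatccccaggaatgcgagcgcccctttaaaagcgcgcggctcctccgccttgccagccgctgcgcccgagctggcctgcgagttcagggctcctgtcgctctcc
KCNA7, chr19:49072650-49072949, minus strand: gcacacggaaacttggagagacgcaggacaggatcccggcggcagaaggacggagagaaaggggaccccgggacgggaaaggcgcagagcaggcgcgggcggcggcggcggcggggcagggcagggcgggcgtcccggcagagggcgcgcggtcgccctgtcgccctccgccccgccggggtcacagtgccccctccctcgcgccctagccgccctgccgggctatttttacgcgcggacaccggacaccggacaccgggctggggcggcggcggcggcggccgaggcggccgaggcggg
CDA, chr1:20588847-20589146, plus strand: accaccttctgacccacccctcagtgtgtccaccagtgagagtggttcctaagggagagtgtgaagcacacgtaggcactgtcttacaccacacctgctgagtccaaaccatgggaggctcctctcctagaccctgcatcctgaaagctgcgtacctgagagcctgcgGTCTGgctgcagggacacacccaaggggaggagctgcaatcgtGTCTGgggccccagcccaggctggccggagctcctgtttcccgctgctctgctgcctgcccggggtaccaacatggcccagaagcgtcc

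Each deposited list gives the position and score of the peaks of 1 library on hg38. The SMAD3 libraries of treated cells held 33700 and 34413 peaks over 19.6 and 19.6 Mb, against 92714 and 90092 H3K27ac peaks over 65.1 and 63.8 Mb. Since peaks come without the number of reads behind them, depth is unknown, and a place without a peak is a place where none was called, not one shown to lack the mark. Per the file headers both SMAD3 libraries and H3K27ac replicate 2 came from sequencing lane 8, and H3K27ac replicate 1 came from lane 7. H3K27ac peaks lay in and around the cholangiocyte markers KRT7, KRT19, KRT8, KRT18 and SOX9, while EPCAM held 0.14 and 0 kb. The defining markers ALB and TTR of hepatocytes, DES and DCN of mesenchymal cells and CD3E of T cells had no H3K27ac in either library. Other genes of those lists did: PECAM1, an endothelial adhesion molecule, held 14.1 and 13.95 kb of H3K27ac, and SERPINA1, a hepatocyte protease inhibitor, held 8.05 and 7.84 kb. PDGFRB, a growth factor receptor of mesenchymal cells, held 16.4 and 14.8 kb, THY1, a surface protein of fibroblasts, 5.01 and 5.06 kb, CSF1R, a receptor of macrophages, 8.63 and 9.05 kb, and PTPRC, the leukocyte antigen CD45, 1.43 and 1.42 kb. No H3K27ac was called in 6 of 17 hepatocyte genes, in 4 of 16 mesenchymal and endothelial genes and in 6 of 16 leukocyte genes, and the highest mean length of a gene in these lists was 7.95, 15.6 and 8.84 kb. The part of other cells in the results was not tested.

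Most SMAD3 in treated cells lay on acetylated chromatin, and most acetylated chromatin carried no SMAD3. Peaks of a target that overlapped by at least 1 bp were merged into regions, and the regions called in both libraries were used. SMAD3 had 24117 such regions and H3K27ac had 67296. Of the SMAD3 regions 20570 (85.3%) touched an H3K27ac region called in both libraries, 466 (1.93%) touched H3K27ac of 1 library only and 3081 (12.8%) touched none. Seen from the other mark, 22408 (33.3%) of the H3K27ac regions carried SMAD3 in both libraries, 3165 touched SMAD3 of 1 library only and 41723 (62.0%) touched none in either. The 4 pairs of single libraries put 78.9% to 79.9% of SMAD3 peaks on H3K27ac, and 27.6% to 28.4% of H3K27ac peaks under SMAD3. Within lane 8 the first share was 78.9% for SMAD3 replicate 4 and 79.5% for replicate 5.

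SMAD3 on H3K27ac differed from SMAD3 off it in position, length and company. The regions on H3K27ac had a median length of 730 bp, and 61.1% of them lay at a gene start, meaning within 1 kb of a protein-coding start. For the 4159 genes without a listed start, both ends of the gene were counted as starts. The regions without H3K27ac had a median of 437 bp, and 23.8% lay at a start. H3K9ac was called at 98.2% of the SMAD3 regions on H3K27ac and at 21.7% of those without it. For H3K9ac, here and below, a peak in at least 1 treated library was enough. In vehicle cells SMAD3 was already called, in at least 1 library, at 82.9% of the regions on H3K27ac and at 49.2% of those without it. The share of a library's SMAD3 peaks on H3K27ac climbed with peak score, which ranks how far a peak stands above background within its library. In the lowest decile by score 55.0% of the peaks of replicate 4 and 55.6% of those of replicate 5 lay on H3K27ac, and in the eighth decile 98.3% and 98.3% did. SMAD3 peaks off H3K27ac had median scores of 6.89 and 6.29 in replicates 4 and 5, against 25.3 and 24.3 for those on it. SMAD3 sites off H3K27ac thus scored lower than those on it, and the part of peak calling in this difference was not tested.

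**Figure D1:**
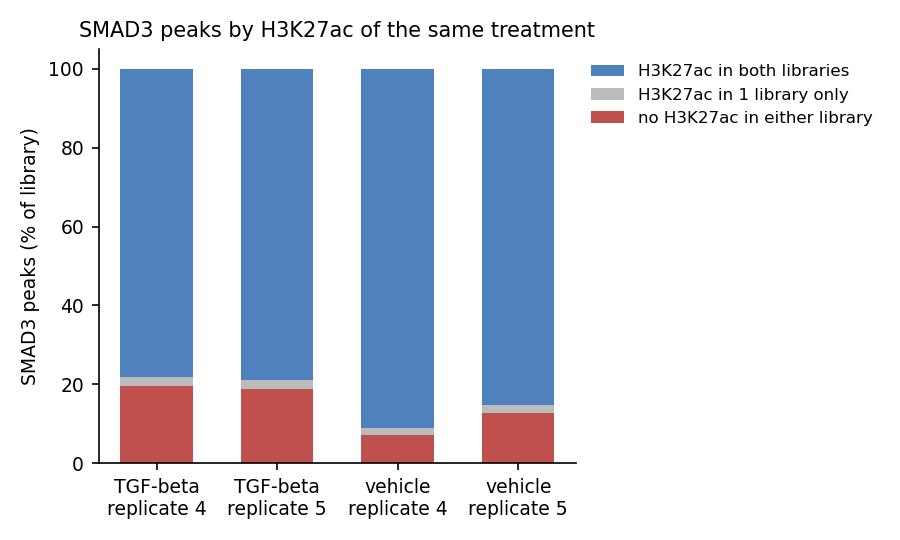
Peaks of each SMAD3 library split by H3K27ac of the same treatment, as percent of the library's peaks, with TGF-beta libraries left of vehicle libraries. In treated cells 78.2% and 78.9% of SMAD3 peaks lay on H3K27ac of both libraries and 19.6% and 18.9% on none, against 91.0% and 85.2% on it and 7.24% and 12.6% on none in vehicle cells.

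**Figure D2:**
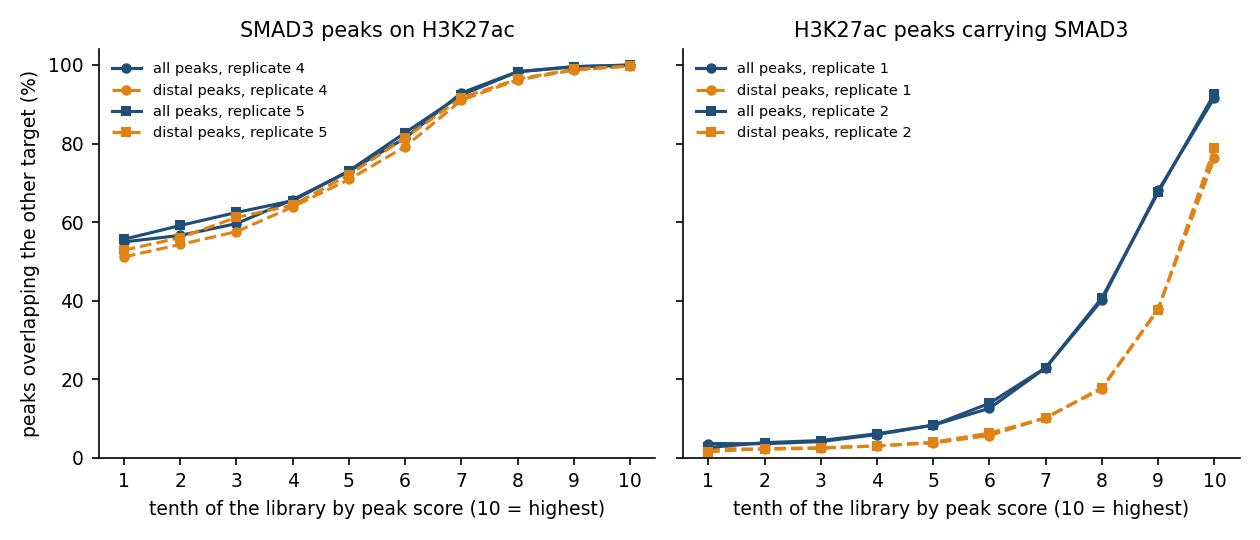
Percent of peaks that overlap the other target, by decile of peak score within each library of treated cells. SMAD3 peaks were on H3K27ac in 55.0% and 55.6% of cases in the lowest decile and in nearly all cases from the eighth decile up, while H3K27ac peaks carried SMAD3 in 3.62% and 2.63% of cases in the lowest decile and in 91.7% and 92.7% in the highest.

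At gene starts the pair nearly always came together. Among 12135 protein-coding genes with H3K27ac at the start, 11631 (95.8%) had SMAD3 there as well, and 335 had no SMAD3 in either library. Of 7569 genes without H3K27ac at the start, 376 (4.97%) had SMAD3 at the start, and 286 of those had H3K9ac. Counted by region, 87.3% of 17783 H3K27ac regions at starts carried SMAD3, and 93.1% of 13498 SMAD3 regions at starts were acetylated. Start regions with SMAD3 were longer, with a median of 1049.5 bp against 375.5 bp for those without. H3K9ac was called at 99.4% of the start regions with SMAD3 and at 70.1% of those without.

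Among the genes of the lists described below, 5 had SMAD3 at a start that was not acetylated. They were SMAD9, a receptor-activated SMAD of the BMP branch, LDLRAD4, an inhibitor of TGF-beta signalling, ONECUT1, a transcription factor of biliary development, CLDN5, a tight junction protein of endothelium, and CD4, a T cell co-receptor. All 5 starts carried H3K9ac. SMAD9 held 0.575 and 0.496 kb of SMAD3 in replicates 4 and 5 and no H3K27ac in either library. The opposite case, an acetylated start without SMAD3, was met at EDN1, ETS1, BATF, APOB, FGB and CD14. EDN1, which encodes the vasoconstrictor endothelin, and ETS1, a transcription factor, each had SMAD3 at 3 of their distal acetylated regions, of 27 and 31. These genes were singled out after their values were seen.

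The start windows of the classes differed in letters and in base composition. GGCGCC on either strand stood in 33.9% of the 8877 windows with SMAD3 and H3K27ac and in 31.1% of the 376 windows with SMAD3 alone. It stood in 9.90% of the 313 windows with H3K27ac alone, in 12.5% of the 5796 with neither and in 25.2% of all 15713. Median GC content was 66.3% in windows with both, 68.0% with SMAD3 alone, 51.7% with H3K27ac alone, 54.0% with neither and 62.7% in all, so the GC-rich word and GC content moved together. The core SMAD word CAGAC was not more frequent under SMAD3, with 42.1% of windows with both, 44.4% with SMAD3 alone, 52.4% with H3K27ac alone and 44.2% of all. The palindrome GTCTAGAC stood in 0.135% of windows with both, in 0 with SMAD3 alone and in 0.223% of all.
The AP-1 word TGANTCA was in 3.66% of windows with both, in 10.9% of those with H3K27ac alone and in 5.75% of all. Words of partner factor families went separate ways. GGAATG (TEAD) was in 10.1% of windows with both and 11.7% of all, TGTGGT (RUNX) in 8.14% and 10.9%, and GGAAGT (ETS) in 28.8% and 24.7%. In the windows with SMAD3 alone these words stood in 10.1%, 7.98% and 16.0%, and the AP-1 word in 3.19%. All words were searched on both strands, and a word that lies across another was counted for each. These are windows at starts only; the distal elements were not searched for words here.

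Away from gene starts most acetylated elements had no SMAD3, although most distal SMAD3 still lay on H3K27ac. Of 10619 distal SMAD3 regions, 8006 (75.4%) touched an H3K27ac region called in both libraries. Of 49513 distal H3K27ac regions, meaning those more than 1 kb from every protein-coding start, 6878 carried SMAD3 in both libraries (13.9%). The share was 12.4% of 27537 regions inside genes and 15.7% of 21976 between genes. Distal elements with SMAD3 had a median length of 1186 bp and H3K9ac at 95.7%, against 489 bp and 31.1% for distal elements with no SMAD3 in either library. The H3K9ac gap was also present among elements of one length. In the shortest decile of distal elements, with a median of 202 bp, 5.53% carried SMAD3, and H3K9ac was called at 85.8% of those and at 15.2% of the elements without SMAD3. In the longest decile, with a median of 2712 bp, 45.1% carried SMAD3, and H3K9ac was called at 99.9% of those with it and at 89.3% of those without. Where SMAD3 was present it covered a median of 46.2% of the length of a distal element and 58.6% of a start region. The most SMAD3 regions found in 1 H3K27ac region was 10.

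The SMAD3-carrying elements of treated cells were mostly acetylated in vehicle cells too. Of the 6878, 4732 (68.8%) had both H3K27ac and SMAD3 in a vehicle library, 1792 (26.1%) had H3K27ac but no SMAD3 there, 85 (1.24%) had SMAD3 but no H3K27ac and 269 (3.91%) had neither. The 1792 elements that were acetylated in both conditions and carried called SMAD3 only under TGF-beta were the longest class, with a median of 1636 bp, and 94.1% of them had H3K9ac. Distal acetylated elements without SMAD3 in treated cells had H3K27ac in vehicle at 71.8% and SMAD3 in vehicle at 1.02%.

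The distal element with the most SMAD3 lies in LOC124905135 on chromosome 22, at chr22:46061161-46092298 (hg38), and is 31138 bp long. SMAD3 replicates 4 and 5 covered 18903 and 16328 bp of it in treated cells, against 10603 and 13292 bp in vehicle cells. A neighbouring element of the same locus, chr22:46101111-46116548, is 15438 bp long, with 12204 and 8552 bp of SMAD3 in treated cells and 2821 and 5464 bp in vehicle cells. That element holds the hairpins of let-7a and let-7b shown above. The let-7 family is known to repress growth and stem cell genes. The let-7b hairpin lay inside a SMAD3 region of 1042 bp, and the let-7a hairpin lay in the acetylated element but outside the SMAD3 regions called in both libraries.

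MIR21, a microRNA gene known to be raised in fibrosis and whose processing SMAD proteins promote, lies in an element of 19408 bp, chr17:59837939-59857346, inside the gene VMP1. SMAD3 covered 12254 and 12451 bp of that element in treated cells and 8589 and 8958 bp in vehicle cells. The cluster of miR-23a, miR-27a and miR-24 lies in an element of 11791 bp, chr19:13833810-13845600, near ZSWIM4. SMAD3 covered 8285 and 7372 bp of it in treated cells and 2838 and 3684 bp in vehicle cells, and the hairpins themselves lay in SMAD3 in treated cells and outside SMAD3 in vehicle cells. In each of these elements both treated libraries had more SMAD3 than both vehicle libraries, and the libraries differ in total called length in the same direction, 19.6 and 19.6 Mb against 11.2 and 14.5 Mb. The elements were also picked for their SMAD3 length in treated cells, which favours that order. Not every element at a microRNA showed it. The element at the miR-10392 hairpin had 483 and 353 bp of SMAD3 in treated cells against 359 and 678 bp in vehicle cells. Starts of microRNA genes were not used to define distal, so such an element can hold the start of a microRNA transcript.

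The other elements among the 8 with the most SMAD3 lay near or in protein-coding genes. PRKCH, a protein kinase C, lies 2989 bp from the element chr14:61553966-61579205 of 25240 bp, where SMAD3 covered 15819 and 15641 bp. Inside KRT7, a keratin of bile duct epithelium, the whole of an element of 8803 bp, chr12:52241980-52250782, lay under SMAD3 in both libraries. ZFP36L1, an RNA-binding protein that destabilises mRNAs, had 7870 and 6813 bp of SMAD3 in an element of 9317 bp. AHNAK2, a giant scaffold protein, had 7663 and 7824 bp in an element of 9405 bp. All 8 elements had H3K27ac and SMAD3 in vehicle cells as well.

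Over all annotated microRNAs the counts were small. Of 1550 hairpins, 195 lay in H3K27ac called in both libraries and 130 in SMAD3, with 106 in both and 21 in SMAD3 without H3K27ac. The hairpins of miR-25 and miR-106b, a pair from the oncogenic cluster inside MCM7, were among the 21, in the SMAD3 region chr7:100093342-100094638 of 1297 bp. In vehicle cells SMAD3 covered the miR-106b hairpin and not the miR-25 hairpin. The let-7i hairpin on chromosome 12 lay in a SMAD3 region of 1916 bp within an H3K27ac region of 2924 bp. SMAD3 covered 1756 and 1887 bp of that region in treated cells and 1327 and 1458 bp in vehicle cells.

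Long acetylated elements without SMAD3 were common as well. The longest distal element with no SMAD3 peak in either library was chr22:36360736-36375820 in MYH9, a nonmuscle myosin heavy chain, at 15085 bp. The next were 9650 bp in PACSIN2, a membrane-curving protein of endocytosis, 9615 bp near DUSP1, an immediate early phosphatase, 8912 bp in CRIM1, a transmembrane regulator of BMP ligands, and 8306 bp in MRTFA, a cofactor of serum response factor. The longest elements were listed after the values were seen. All 5 were acetylated in vehicle cells and had no SMAD3 there either.

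To compare genes, the peak length inside each protein-coding gene and 10 kb on both sides was taken for each of the 4 libraries. Values were put on the scale log2(length + 500 bp), and each library was centred on its median gene, since antibodies differ in how much they call. A difference is SMAD3 minus H3K27ac, so a positive one means that the gene held more SMAD3, relative to the median gene, than its H3K27ac would place it. With limma and Benjamini-Hochberg adjustment at 0.05, 5947 of 13896 genes (42.8%) were higher and 4179 (30.1%) were lower. The p-values measure only the spread between these libraries, which may be technical. Without centring, 781 genes were higher and 10869 lower, because SMAD3 covers less of the genome, and the centring moved every gene by 0.89 on the log2 scale. Genes called higher had a median span of 19.3 kb and a median of 0 distal acetylated elements, against 59.5 kb and 5 elements for genes called lower. The called direction therefore moved with gene length, and gene length and SMAD3 content were not separated by a test. Chromosome 19, which is dense in genes, held 11.1% of the genes called higher, 4.16% of those called lower and 7.51% of those not called.

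**Figure D3:**
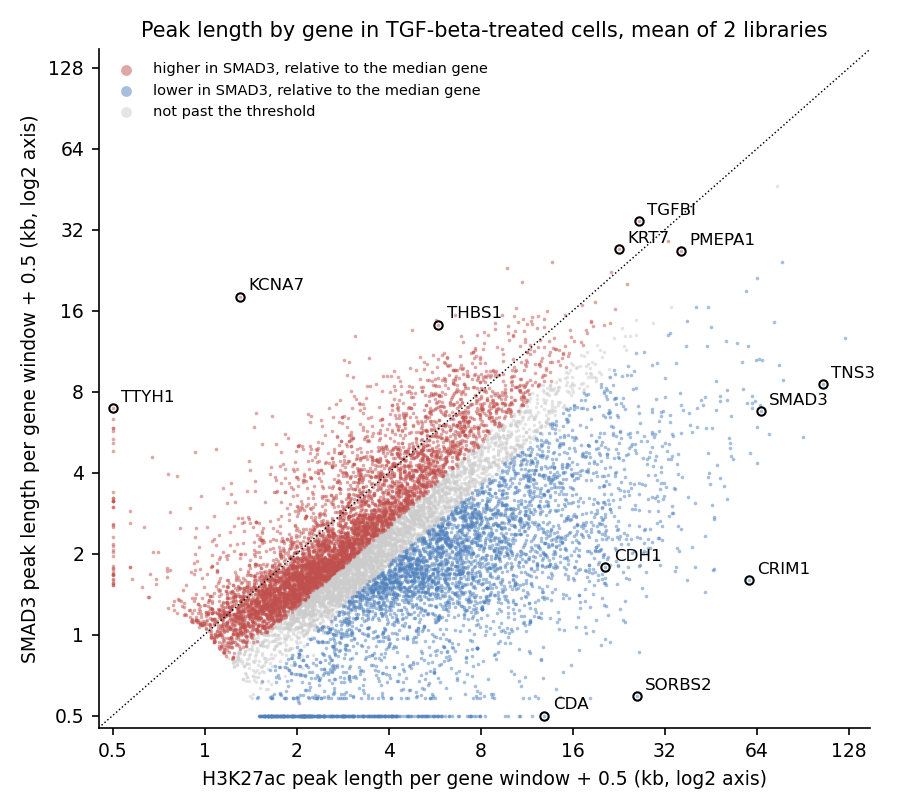
Mean peak length per gene window in treated cells, SMAD3 (vertical) against H3K27ac (horizontal), both in kb on log axes. Of 13896 genes 5947 were higher and 4179 lower in SMAD3 relative to the median gene (limma, adjusted p under 0.05).

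The counts of each list below are to be read beside the 42.8% of all genes called higher and 30.1% called lower, and beside the 14.9% of distal elements of all genes that carried SMAD3. Known targets of TGF-beta and SMAD signalling were divided: of 23 measured, 9 were higher in SMAD3, 9 were lower and 5 did not pass, with a median difference of -0.10 against 0.17 over all genes. Without centring 3 were higher and 18 lower. All 21 acetylated starts of the list carried SMAD3, and 70 of the 307 distal elements of its genes did (22.8%), against 14.9% of the distal elements assigned to any gene. TGFBI alone gave 17 of the 70, from 26 elements. The members were picked as targets of this pathway with earlier results of these data known.

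TGFBI, a secreted matrix protein induced by TGF-beta, held 38.2 and 29.4 kb of SMAD3 in replicates 4 and 5, against 26.4 and 25.2 kb of H3K27ac in replicates 1 and 2. Both SMAD3 libraries lay above both H3K27ac libraries, and the centred difference was 1.27 (SE 0.144, limma adjusted p = 0.000375). SMAD3 was on 17 of its 26 distal acetylated elements, the most of any member of the lists. A further 7 SMAD3 regions lay in or near TGFBI without H3K27ac.

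The feedback inhibitors of the pathway differed among themselves. SKIL, which represses SMAD complexes, held 5.53 and 5.73 kb of SMAD3 and 4.33 and 4.65 kb of H3K27ac, a difference of 1.19 (limma adjusted p = 7.46e-05). None of its 5 distal elements carried SMAD3, and 4 SMAD3 regions lay in or near it without H3K27ac. SMAD7, which blocks the receptors, held 9.96 and 7.54 kb of SMAD3 and 25.3 and 23.2 kb of H3K27ac, a difference of -0.54 (limma adjusted p = 0.016). Its call was lost without H3K27ac replicate 1 (limma adjusted p = 0.0779) and with 100 bp added in place of 500 bp (0.0779), and 7 of its 24 distal elements carried SMAD3. PMEPA1, which sequesters SMADs, held 28.6 and 23.7 kb of SMAD3 and 35.8 and 35.4 kb of H3K27ac. Its centred difference was 0.45 (limma adjusted p = 0.0143) and -0.44 without centring, and its call was lost without H3K27ac replicate 1 or 2, with 2000 bp added and with 2.5 kb on each side. CCN2, the matricellular protein CTGF, held 4.66 and 4.34 kb of SMAD3 and 7.10 and 7.10 kb of H3K27ac, a centred difference of 0.29 (limma adjusted p = 0.0285) that was -0.61 without centring. Its call was lost without SMAD3 replicate 4 or either H3K27ac replicate, with 2000 bp added and with peaks of a score of at least 5.

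**Figure D4:**
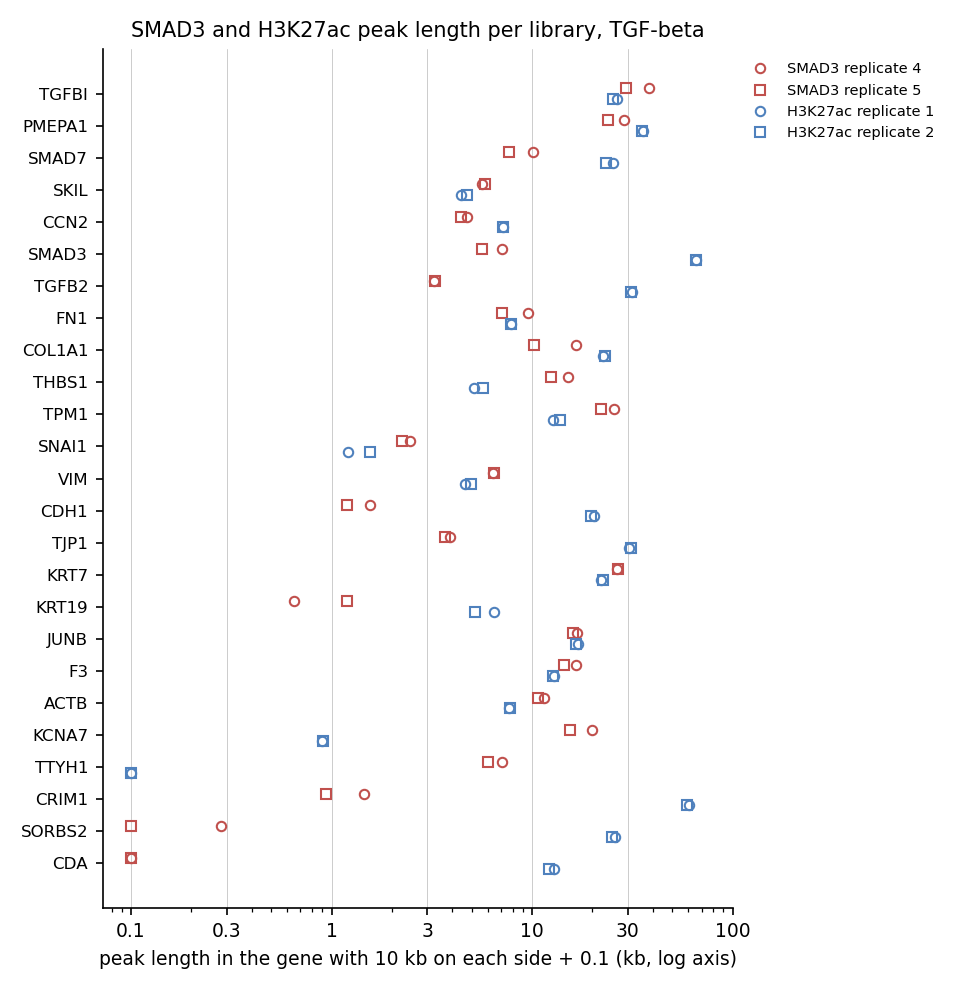
Peak length in kb inside named genes with 10 kb on each side, with 0.1 kb added, on a log axis. Red symbols are the SMAD3 libraries and blue symbols, drawn just under them, the H3K27ac libraries of treated cells. TGFBI, THBS1 and TPM1 held more SMAD3 than H3K27ac in both libraries, while SMAD3, CDH1 and TGFB2 held far less.

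Ligands, receptors and SMADs carried little distal SMAD3. Of 20 measured members 4 were higher, 7 lower and 9 did not pass, with a median of 0.10, and without centring none was higher and 19 were lower. All 19 acetylated starts had SMAD3, but SMAD3 was on only 13 of 190 distal elements (6.84%, beside 14.9% over all genes). The gene SMAD3 itself had 7.02 and 5.53 kb of SMAD3 against 65.3 and 65.6 kb of H3K27ac, a difference of -2.40 (limma adjusted p = 2.08e-05), with SMAD3 on 4 of its 50 distal elements. TGFB2, a ligand, held 3.14 and 3.19 kb of SMAD3 against 31.3 and 31.1 kb of H3K27ac, and 2 of its 42 distal elements carried SMAD3. In both genes both SMAD3 libraries lay far below both H3K27ac libraries. ENG, a co-receptor, had 5 SMAD3 regions without H3K27ac, the most of this list, and held 4.95 and 4.77 kb of SMAD3 and 6.28 and 5.92 kb of H3K27ac. LTBP3, which stores latent TGF-beta in the matrix, did not pass (difference 0.14, limma adjusted p = 0.529).

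In the matrix list 6 of 22 members were higher, 13 lower and 3 did not pass, with a median of -0.88, and without centring 1 was higher and 18 lower. Of the starts of all 25 genes in the list 22 were acetylated and all 22 carried SMAD3, and 22 of 203 distal elements carried it (10.8%). THBS1, thrombospondin 1, an activator of latent TGF-beta, stood out among them with 15 and 12.4 kb of SMAD3 against 5.04 and 5.57 kb of H3K27ac, a difference of 2.18 (SE 0.13, limma adjusted p = 2.68e-05) that stayed at 1.29 without centring. It had no distal acetylated element, and 5 SMAD3 regions lay in or near it without H3K27ac. FN1, fibronectin, held 9.41 and 6.98 kb of SMAD3 and 7.79 and 7.73 kb of H3K27ac, and its groups overlapped. Its centred difference was 0.95 (limma adjusted p = 0.00158), and without centring it was 0.061 and did not pass (limma adjusted p = 0.709). SMAD3 was on 3 of 10 distal elements of FN1. COL1A1, the chain of fibrillar collagen I, held 16.4 and 10.2 kb of SMAD3 and 22.4 and 22.9 kb of H3K27ac and did not pass (0.11, limma adjusted p = 0.662), with SMAD3 on 5 of 15 distal elements. The basement membrane collagens COL4A1 and COL4A2, whose windows overlap, parted, with COL4A1 not passing at 0.019 and COL4A2 lower at -1.39 (limma adjusted p = 0.887 and 0.000357). SPARC, a collagen-binding matricellular protein, was higher by 0.85 with centring and -0.047 without. In or near SPARC 3 SMAD3 regions lay without H3K27ac.

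Of 25 integrin and cytoskeleton genes 13 were lower, 5 were higher and 7 did not pass, and without centring 21 lower and 1 higher. SMAD3 was at all of the acetylated starts, 21, and on 53 of 400 distal elements (13.2%). TPM1, tropomyosin 1, was the member higher on both scales, with 25.5 and 21.9 kb of SMAD3 against 12.6 and 13.7 kb of H3K27ac and a difference of 1.72 (limma adjusted p = 4.64e-05) or 0.82 without centring. TNS3, a focal adhesion tensin, held 10.4 and 5.70 kb of SMAD3 against 107 and 103 kb of H3K27ac, with SMAD3 on 8 of its 78 distal elements. PALLD, an actin-bundling protein, held 6.38 and 4.39 kb against 63.2 and 64.1 kb, with 6 of 54. Both were lower beyond the spread (-2.78 and -2.57, limma adjusted p = 0.000149 and 4.31e-05). ITGB6, the epithelial integrin that activates latent TGF-beta, did not pass (0.22, limma adjusted p = 0.0646), although 6 of its 9 distal elements carried SMAD3. TAGLN, an actin-binding protein, was higher by 0.68 (limma adjusted p = 0.00424) with centring and -0.22 without.

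Of 13 genes of the epithelial to mesenchymal transition 9 were lower, 3 were higher and 1 did not pass (11 lower and 2 higher without centring). SMAD3 was at 10 of 13 acetylated starts and on 18 of 115 distal elements (15.7%, beside 14.9% over all genes). VIM, vimentin, held 6.31 and 6.33 kb of SMAD3 against 4.52 and 4.89 kb of H3K27ac, a difference of 1.28 (limma adjusted p = 5.9e-05). SNAI1, a repressor of E-cadherin, held 2.37 and 2.16 kb against 1.11 and 1.45 kb, a difference of 1.53 (limma adjusted p = 0.000103), which changed sign when 50 kb on each side was used. In ZEB2, another repressor, the start was acetylated, SMAD3 was called there in 1 library only, and 3 of 12 distal elements carried it (-0.86, limma adjusted p = 0.000652).

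No epithelial junction gene was higher. Of 17 measured 13 were lower and 4 did not pass, all 17 were lower without centring, and at an unadjusted p under 0.05 13 of the 17 differed in either direction. SMAD3 was at 15 of 16 acetylated starts and on 15 of 120 distal elements (12.5%). CDH1, E-cadherin, held 1.46 and 1.09 kb of SMAD3 against 20.3 and 19.6 kb of H3K27ac, a difference of -2.64 (limma adjusted p = 1.41e-05). None of its 19 distal elements carried SMAD3. CDH1 has no listed start, so the SMAD3 counted at its start can lie at either end of the gene. TJP1, the tight junction scaffold ZO-1, held 3.80 and 3.59 kb against 30.5 and 30.9 kb, with SMAD3 on 3 of 31 distal elements. The cholangiocyte list was divided, with 5 higher, 7 lower and 3 not passing of 15, and SMAD3 on 17 of 80 distal elements (21.2%); without centring 1 was higher and 13 lower. KRT7 held 26.4 and 26.7 kb of SMAD3 against 22 and 22.4 kb of H3K27ac (1.15, limma adjusted p = 6.7e-05), with SMAD3 on 6 of 12 distal elements. KRT19, another keratin of the duct epithelium, held 0.551 and 1.09 kb against 6.38 and 5.07 kb (-1.36, limma adjusted p = 0.00104), with none of 6.

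Secreted profibrogenic and inflammatory factors were lower in 13 of 19 cases, higher in 3 and did not pass in 3, and without centring 18 were lower and 1 higher. SMAD3 was on 19 of their 165 distal elements (11.5%) and at 16 of 18 acetylated starts. IL11, a profibrotic cytokine, held 10.3 and 9.09 kb of SMAD3 against 7.42 and 7.46 kb of H3K27ac (1.25, limma adjusted p = 9.94e-05), with 3 SMAD3 regions lacking H3K27ac. PDGFB, a growth factor for mesenchymal cells, had SMAD3 on 5 of 20 distal elements and did not pass (-0.10, limma adjusted p = 0.543). PDGFC and EDN1 were lower, with SMAD3 on 3 of 27 distal elements in each (-1.99 and -1.66, limma adjusted p = 1.41e-05 and 1.71e-05).

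AP-1 and immediate early genes had more distal SMAD3 than most lists, on 37 of 147 elements (25.2%). Of 19 members 9 were higher, 5 lower and 5 did not pass, and without centring none was higher and 15 were lower. JUNB held 16.7 and 16.0 kb of SMAD3 and 16.9 and 16.5 kb of H3K27ac, groups that overlapped, for a centred difference of 0.86 (limma adjusted p = 0.000245) and -0.032 without centring. FOS had SMAD3 on 5 of 17 distal elements and IER3, a stress-induced gene, on 5 of 14, and neither passed (-0.059 and 0.0056, limma adjusted p = 0.559 and 0.955). IER2, an immediate early factor, had SMAD3 on all 4 of its distal elements. Targets of YAP, the effector of the Hippo pathway, were lower in 10 of 19 cases, higher in 6 and did not pass in 3 (17 lower and 1 higher without centring), with SMAD3 on 28 of 251 distal elements (11.2%). F3, tissue factor, held 16.5 and 14.3 kb of SMAD3 against 12.7 and 12.7 kb of H3K27ac (1.16, limma adjusted p = 0.000156), with SMAD3 on 8 of 11 distal elements. AJUBA, a LIM scaffold protein, was higher by 1.21 (limma adjusted p = 0.000278), and without centring its difference was 0.31 and did not pass (limma adjusted p = 0.0538). AMOTL2, a YAP inhibitor, was lower by -0.78 (limma adjusted p = 0.00065).

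BMP and ID targets were even, with 3 higher, 2 lower and 6 not passing of 11, and without centring none higher and 10 lower. ID1, a BMP-induced inhibitor of differentiation, held 4.68 and 4.39 kb of SMAD3 against 11.6 and 11.8 kb of H3K27ac (-0.38, limma adjusted p = 0.00988, lost without H3K27ac replicate 2 and with 100 bp added). The acetylation machinery had 9 higher, 7 lower and 4 not passing of 20 (2 higher and 15 lower without centring), and SMAD3 on 7 of 59 distal elements (11.9%). EP300, which encodes p300, held 1.58 and 1.71 kb of SMAD3 against 2.38 and 2.45 kb of H3K27ac, with a centred difference of 0.45 (limma adjusted p = 0.00373) that was -0.44 without centring. BRD2, a reader of acetylated histones, was higher by 1.16 (limma adjusted p = 6.17e-05) and had 3 SMAD3 regions without H3K27ac. Among cell cycle genes 8 were higher, 7 lower and 9 did not pass of 24 (none higher and 22 lower without centring). CDK6, a kinase of the G1 phase, held 1.49 and 1.61 kb of SMAD3 against 26.4 and 27.4 kb of H3K27ac, with SMAD3 on none of 29 distal elements.

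The ribosomal protein and housekeeping lists were made without regard to TGF-beta. Of 25 ribosomal protein genes 21 were higher, 1 was lower and 3 did not pass, with a median of 0.85 (10 higher and 9 lower without centring), and of 23 housekeeping genes 14 were higher, 1 was lower and 8 did not pass, with a median of 0.40 (1 higher and 16 lower without centring). SMAD3 was at all 25 and 23 acetylated starts of these lists and on 14 of 47 (29.8%) and 14 of 41 (34.1%) of their distal elements, shares above that of the TGF-beta targets. ACTB, beta actin, held 11.3 and 10.7 kb of SMAD3 against 7.56 and 7.71 kb of H3K27ac (1.39, limma adjusted p = 4.15e-05). Among markers of other cell types 8 of 9 measured mesenchymal and endothelial genes were lower and none higher, 4 of 7 hepatocyte genes were lower and 2 higher, and 4 of 10 leukocyte genes were lower and 3 higher, beside 30.1% lower over all genes. Without centring 9, 6 and 9 of them were lower and 0, 0 and 1 higher.

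The 8 genes with the most SMAD3 relative to H3K27ac were genes of little acetylation, an outcome that ranking by this difference favours. KCNA7, a potassium channel, held 19.8 and 15.3 kb of SMAD3 against 0.792 and 0.811 kb of H3K27ac, a difference of 4.68 (SE 0.142, limma adjusted p = 7.39e-06), with 8 SMAD3 regions without H3K27ac, and SMAD3 covered its start window shown above. TTYH1, a chloride channel protein, held 6.94 and 5.94 kb of SMAD3 and was listed at 0 kb of H3K27ac in both libraries. TNFRSF13C, the BAFF receptor of B cells, PILRA, a myeloid inhibitory receptor, ATP2B3, a calcium pump, SLC5A2, a kidney glucose transporter, COL20A1, a collagen, and SNAI3, a SNAIL family factor, were likewise listed at 0 kb of H3K27ac, with 3.18 to 6.50 kb of SMAD3. Genes at 0 kb of H3K27ac passed the minimum mean of 500 bp through SMAD3 alone. The size of their difference depends on the 500 bp added. Their SMAD3 lies in the gene or within 10 kb of it and can belong to a neighbour.

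The 8 genes with the least SMAD3 relative to H3K27ac each held at least 12 kb of H3K27ac in both libraries. CRIM1 held 1.36 and 0.834 kb of SMAD3 against 60.3 and 59.3 kb of H3K27ac (-4.37, limma adjusted p = 8.69e-06), and none of its 55 distal elements carried SMAD3. SORBS2, an adaptor of the cytoskeleton, held 0.180 and 0 kb against 25.9 and 24.8 kb, with SMAD3 on 1 of 37 elements. CDA, cytidine deaminase, held no SMAD3 in either library against 12.8 and 12 kb of H3K27ac, although its start was acetylated. NDST1, an enzyme of heparan sulfate, MYPN, a sarcomere protein, PLXNA2, a semaphorin receptor, and MAML2, a Notch coactivator, held 0 to 1.70 kb of SMAD3 against 16.9 to 46.4 kb of H3K27ac. In each of the 8 both SMAD3 libraries lay below both H3K27ac libraries, as the rule that chose them requires.

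SMAD3 sites without H3K27ac lay mainly inside and between genes. Of the 3081, 1350 (43.8%) were in genes, 997 (32.4%) between genes and 734 (23.8%) at starts. When a single SMAD3 library defined the regions there were more such sites, 6503 without replicate 4 and 6601 without replicate 5. H3K9ac was called at 53.7% of the sites at starts, at 10.4% of those in genes and at 13.3% of those between genes. The largest set was the 1209 sites inside genes with neither mark, with a median length of 480 bp. H3K27ac had been called at 270 of the 3081 sites (8.76%) in a vehicle library. Chromosome 19 held 15.2% of the sites, against 8.30% of the SMAD3 regions on H3K27ac and 4.96% of all H3K27ac regions.

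Most of these sites had acetylated chromatin within a few kb. The median distance to the nearest H3K27ac peak was 3976 bp, with quartiles of 1262 and 9021 bp, and 417 sites (13.5%) lay within 500 bp. At 695 sites (22.6%) it was more than 10 kb. Distance and H3K9ac did not run evenly: H3K9ac was called at 153 of 417 sites within 500 bp, at 76 of 776 sites at 2 to 5 kb, at 95 of 380 sites at 10 to 20 kb, at 115 of 203 sites at 20 to 50 kb and at 45 of 48 sites beyond 100 kb. At starts the sites with H3K9ac had a median distance of 9285 bp and a median length of 331.5 bp, and those without it had 3098.5 bp and 510.5 bp.

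**Figure D5:**
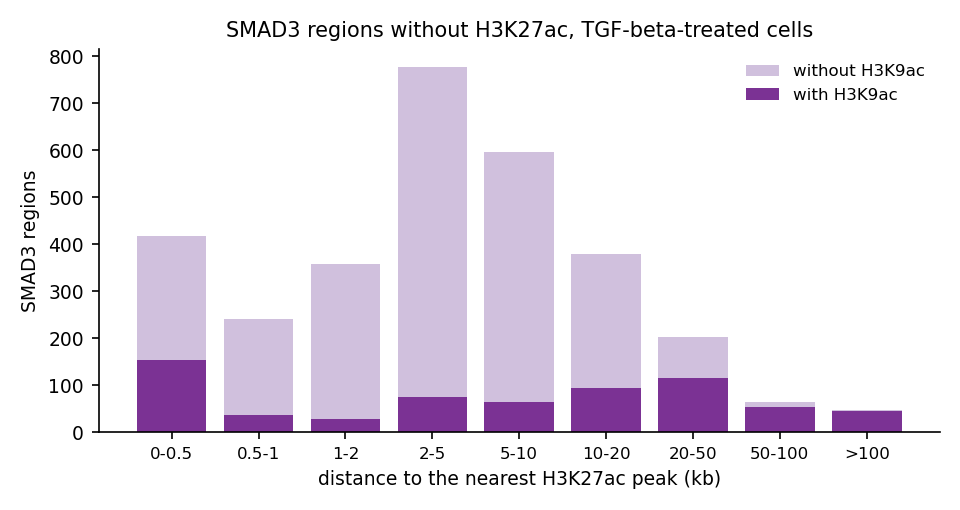
Number of SMAD3 regions without H3K27ac in treated cells by distance to the nearest H3K27ac peak in kb, split by H3K9ac. H3K9ac was called at 76 of 776 sites at 2 to 5 kb and at 45 of 48 sites beyond 100 kb.

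By mean score rank within the libraries, where 100 is the highest peak, the top site without H3K27ac was chr17:19187968-19188250, 283 bp long with a rank of 92.0, 28780 bp from GRAPL and without H3K9ac. The next was the start of RASD1, a glucocorticoid-induced Ras protein, at chr17:17495802-17496679 with a rank of 87.9 and H3K9ac, 17623 bp from H3K27ac. The starts of TENT5C, a poly(A) polymerase (chr1:117605920-117606502), and SLC16A10, an amino acid transporter (chr6:111087123-111087955), were 213871 and 104455 bp from the nearest H3K27ac peak and had H3K9ac. The SLC16A10 site was acetylated at H3K27 in vehicle cells, the only one of the 8 top sites that was.
The start of TNRC6C, a protein of microRNA silencing, at chr17:77958111-77958549, lay 176 bp from an H3K27ac peak, so the gap there is narrow. A site in ATP1B2, a subunit of the sodium pump, at chr17:7650853-7651510 and one at the start of SMARCD3, a subunit of BAF remodelling complexes, at chr7:151276826-151277208 had H3K9ac. A region of 4635 bp in ACP4, an acid phosphatase, at chr19:50792879-50797513 had neither mark. All 8 had SMAD3 in vehicle cells.

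Some sites without H3K27ac were long. Of the 3081, 132 spanned at least 2000 bp. The longest were 7362 bp at NFE2L3, a transcription factor (chr7:26182177-26189538), 5475 bp at YPEL4, 5314 bp in FSCN2, a fascin known from the retina (chr17:81532803-81538116), 5154 bp in ASMTL and 5072 bp over DBNL and PGAM2, of which the YPEL4 site had H3K9ac and the others did not. The whole FSCN2 window held 24.7 and 20.5 kb of SMAD3 against 9.17 and 9.31 kb of H3K27ac (2.13, limma adjusted p = 2.26e-05). In ASMTL it was 11.2 and 9.21 kb against 2.85 and 3.04 kb (2.52, limma adjusted p = 1.48e-05). REPS1, an endocytosis protein, had 12 SMAD3 regions without H3K27ac, with 11.3 and 10.6 kb of SMAD3 and 14.2 and 13.6 kb of H3K27ac (0.56, or -0.33 without centring). These sites and genes were picked after their values were seen.

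In a few genes SMAD3 peaks covered most of the gene body. Of 14315 genes of at least 10 kb, 16 (0.112%) had at least 50% of the body under SMAD3 peaks in both treated libraries, a set defined after the values were seen. Among them were KRT7, F3, TNS4, TGFBI, PDLIM7, THBS1, FDPS, TPM1, LOC124904106, AJUBA, TNS2, MAFK, PTOV1, FSCN2 and PPP1R10. In F3 SMAD3 covered 11.4 and 10.1 kb of a body of 12.6 kb in treated cells, against 3.6 and 6.91 kb in vehicle cells, and H3K27ac covered 7.43 and 7.77 kb. In TGFBI it covered 28.4 and 23.7 kb of 34.8 kb in treated cells and 0.42 and 0.59 kb in vehicle cells. KRT7 was the one gene of the 16 with at least 50% in both vehicle libraries, at 15.9 and 19.6 kb of 22.6 kb, against 22.5 and 22.4 kb in treated cells.
Part of this SMAD3 lay outside H3K27ac. In THBS1 SMAD3 covered 13.0 and 10.9 kb of 18.4 kb, of which 9.87 and 7.95 kb lay outside H3K27ac, and H3K27ac covered 2.57 and 3.15 kb. In TGFBI 9.25 and 7.42 kb of SMAD3 lay outside H3K27ac. H3K27ac covered at least 50% of the body in both libraries in 9 of the 16. Over the whole genome 20.7% and 19.4% of the SMAD3 length in replicates 4 and 5, 4.08 and 3.81 Mb, lay outside every H3K27ac region. RNA was not measured here, so these lengths cannot be set beside transcription.

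Set once against vehicle, a smaller share of SMAD3 peaks lay on H3K27ac after TGF-beta in these libraries, and the test could not pass. The share was 78.2% and 78.9% in treated cells and 91.0% and 85.2% in vehicle cells, a difference of -9.56 percentage points (exact two-sided permutation test, p = 0.33, the smallest that 2 against 2 allows). The groups did not overlap. Treated libraries also had more SMAD3 peaks, 33700 and 34413 against 22451 and 25268, and with the same number of top-scoring peaks taken from every library of a target the difference was -1.42 points (exact permutation p = 0.667). The difference thus moved with the number of peaks called, and the part of either treatment or peak number in it was not tested further.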

How the data were processed

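Peak lists of 12 ChIP-seq libraries of H69 cells, 1 per library, were deposited by the authors, with positions on hg38. BWA, Picard, MACS2 and bedtools are named in the submitters' processing notes, while their versions, order, cutoffs and control were not given in the sources used here. Along with each peak the authors deposited a score, read here as −log10 of a p or q value (which of them is not given), with a lowest value of 2.00 to 2.04. Scores were used to rank or filter peaks within a library. Longer called length can come from deeper sequencing, and depth is unknown.

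Peaks on chromosomes 1 to 22 and X were merged with an overlap of at least 1 bp. Gene positions came from RefSeq GRCh38.p14, with a listed start for 15811 of 19970 protein-coding genes, while for the others both ends were used. Elements were assigned to every gene they touch or else to the nearest within 50 kb. Only genes averaging 500 bp or more of peak length over the 4 libraries were tested with limma 3.58.1 in R 4.3.3, and the rest was computed in Python 3.11.15 (numpy 2.4.6, pandas 2.3.3). The fit was also run on simulated data in which few genes differed, unlike in these libraries. That run is no support for the p-values given here. Overlap counts carry no test, since regions are not replicates. The 18 gene lists held 376 entries. The libraries, lists and named genes were chosen with earlier results of these data known. Named were genes fixed by name, the 8 with the largest difference in each direction, for each list the members richest in SMAD3-carrying elements (4 at most) and in SMAD3 regions without H3K27ac (2 at most), 8 distal elements and 8 sites without H3K27ac; genes picked otherwise are said to be. A few genes that these rules name are not reported here. Alternatives changed the overlap, score minimum, number of peaks, start distance, pseudocount, window, filter, centring, limma options and libraries. SMAD3 replicate numbers 4 and 5 recur in vehicle cells, but deviations of the 2 treatments did not go together (correlation -0.069 across 12505 genes), so the numbers were not taken to pair the libraries.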

Additional observations from a re-analysis of the deposited data

How the results depend on the processing

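Regions change with the rules that join them, and the cause of each change was not tested. Below, region values stand in the order of SMAD3 regions on H3K27ac, SMAD3 regions without H3K27ac, their share with H3K9ac, and the shares of all, start and distal H3K27ac regions that carry SMAD3, and percentages that moved by less than the spread between replicates are left out. An overlap of at least 50% of the shorter region gave 83.4% on H3K27ac, 3534 sites without it, and 29.4%, 76.2% and 12.6% carrying SMAD3. Peaks with a score of at least 5 gave 87.3%, 2419 sites, 26.4% with H3K9ac, and 35.8%, 88.4% and 14.6%. Regions called in either library gave 77.4%, 8548 sites, 15.4% with H3K9ac, and 28.2% and 84.3%. Leaving out each library gave 78.2% to 86.3% on H3K27ac, 3295 to 6601 sites, 14.9% to 25.1% with H3K9ac, and 26.1% to 35.9%, 81.4% to 88.8% and 10.6% to 16.9% carrying SMAD3. Gene starts within 2.5 kb gave 77.4% at starts and 13.4% at distal elements. Counting a gap of up to 500 bp as overlap, which was chosen after seeing the data, gave 87.2%, 2664 sites, 19.3% with H3K9ac, and 37.7%, 93.9% and 17.5%. The same number of peaks per library gave 3009 sites and moved the percentages by less than the spread.

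The counts of genes higher and lower in SMAD3 stayed within 1.5 times under every alternative tried except no centring, which gave 781 higher and 10869 lower. Leaving out a library gave 4537 to 6056 higher and 3495 to 4398 lower; the lone library was then assumed to vary like the other target. Of 974 values of 75 named genes under alternatives, 907 kept their side of the threshold, with direction changing only where neither value passed. Such changes are not listed below. They were met in COL1A1, LTBP3 and COL4A1 with 2000 bp added and without SMAD3 replicate 4, and in COL4A1 without H3K27ac replicate 2. Without centring the difference was PMEPA1 -0.44, CCN2 -0.61, ENG -0.30, LTBP3 -0.76, COL1A1 -0.78, COL4A1 -0.87, SPARC -0.047, ITGB6 -0.67, TAGLN -0.22, TPM4 -0.83, SNAI2 -0.32, KRT8 -0.79, JUNB -0.032, JUND -0.046, IER2 -0.41, IER3 -0.89, CCN1 -0.53, SMAD6 -0.87, EP300 -0.44 and REPS1 -0.33, each positive with centring. With 50 kb on each side it was COL4A1 -0.97, ITGB6 -0.25, SNAI1 -0.094, JUP 0.51, CCN1 -0.30 and HDAC5 0.23. With 2.5 kb it was ITGB6 -0.64 and ID1 0.43, and with 2000 bp added IER3 -0.20. Calls were lost for PMEPA1 with 2000 bp added and with 2.5 kb (limma adjusted p = 0.162 and 0.23), for CCN2 with 2000 bp added and with scores of at least 5 (0.22 and 0.27), and for SMAD7 and ID1 with 100 bp added (0.0779 and 0.0554). They were also lost for CCN1 with 2000 bp added (limma adjusted p = 0.162), IER2 with 50 kb (0.43) and RPL3 with 100 bp added (0.164). CCN1 and RPL3 lost theirs without H3K27ac replicate 1 or 2 as well.

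Taking the SMAD3 libraries with the same number as a replicate block left the change in the share of SMAD3 on H3K27ac at -9.56 percentage points between TGF-beta and vehicle (exact sign-flip p = 0.5, the smallest that 2 pairs allow). Leaving out a SMAD3 library gave -6.64 to -12.5 points. Unknown depth limits every statement on a missing peak.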
